A study of Homo sapiens with 6 samples.

Results

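Elongation factors and other TOP mRNAs were examined as a set of 10 genes out of 23204 gene symbols in the deposited tables. The set was chosen by symbol, as mRNAs of the translation machinery that code for no ribosomal protein, and each gene is represented by its row of highest mean level over the 6 libraries. The genes were EEF1A1, EEF1B2, EEF1D, EEF1G, EEF2, PABPC1, TPT1, GNB2L1 (now RACK1), NACA and BTF3. RNA-seq was performed on HEK293T, a human embryonic kidney line, with 1 library for each of 6 groups. In the siRNA arm, cells received a control siRNA or an siRNA against the DEAD-box RNA helicase DDX3X for 48 h. In the plasmid arm, cells were transfected with 5 µg of a plasmid, grown for 32 h and sorted for GFP. The labels also mention a slightly shorter time beside 32 h for this arm. The plasmid coded either for GFP by itself or for GFP fused to DDX3X, as GFP-DDX3X wild type, T275M or G302V. These names follow the sample labels, while the study's plot of these data names G302V and another mutant than T275M, so which mutant the library labelled T275M carries is in doubt for each of its values. T275M and G302V are DDX3X mutants associated with medulloblastoma, and the cells of every group still carry their own DDX3X gene. Expression was transient, and no sorting is described for the siRNA arm.

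A TOP mRNA begins with a terminal oligopyrimidine tract, a C at the cap followed by an unbroken run of C and T. Such mRNAs code for ribosomal proteins, elongation factors and a few other proteins of translation, and their translation is known to follow mTOR activity through the cap-binding protein LARP1. The elongation factors work in a cycle. EEF1A1 brings aminoacyl-tRNA to the ribosome, EEF1B2 and EEF1D exchange its bound nucleotide, EEF1G holds that exchange complex together, and EEF2 moves the ribosome along the mRNA. RNA-seq measures the level of these mRNAs and says nothing of how well they are translated. EEF1A1, EEF1G, PABPC1 and GNB2L1 are named in the list of RNAs that the study found bound to DDX3X. Only a shortened copy of that list was at hand, so the other members may be on it too.

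The start sequences show which of these mRNAs have the tract at an annotated start. Starts annotated by RefSeq (GRCh38.p14) were found for 8 of the 10 genes, and EEF1D and PABPC1 were not matched. Each line gives 25 bases of the coding strand, the last 5 before the annotated start and the first 20 of the transcript, with the unbroken run of C and T from the first base in capitals.
EEF1A1: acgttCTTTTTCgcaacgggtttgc
EEF1B2: cgggtCCTTTTTCCTCTCTTCagcg
EEF2: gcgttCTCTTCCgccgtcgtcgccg
TPT1: tcggcCTTTTCCgcccgctcccccc
GNB2L1: tctctCTCTCTTTCactgcaaggcg
NACA: tcggtCTTTCTgccgccatcttggt
BTF3: ggcctCCCTTTagctgccatcttgc
EEF1G: ggcttactttgcggcagcgccgaga

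Of the 8 genes, 7 had a start with C followed by at least 4 bases that were all C or T. The tract was longest in EEF1B2, at 16 bases, and had 9 bases in GNB2L1, 7 in EEF1A1, EEF2 and TPT1, and 6 in NACA and BTF3. EEF1G had A at the annotated start, directly before a C and a short run of T. A second RefSeq start of EEF1B2, upstream of the one shown, had no tract. Among all 35116 start windows of the RefSeq table, 4.07% held such a start on the strand of the gene, and 5.14% of the 27305 symbols had at least 1 start with it. Of the cytosolic ribosomal protein genes, 47 of the 63 matched had it (74.6%), whereas none of the 4 mitochondrial elongation factors had it. Whether HEK293T cells use these annotated starts was not tested.

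The windows lie at chr6:73521013-73521037 (EEF1A1, minus strand), chr2:206159890-206159914 (EEF1B2, plus strand), chr19:3985444-3985468 (EEF2, minus), chr13:45341164-45341188 (TPT1, minus), chr5:181243887-181243911 (GNB2L1, minus), chr12:56725280-56725304 (NACA, minus), chr5:73498437-73498461 (BTF3, plus) and chr11:62573872-62573896 (EEF1G, minus), all in GRCh38.p14. The deposited tables use GRCh37. On that build, the genes lie on chromosome 6 from 74199031 to 74235310 (EEF1A1), chromosome 2 from 207024309 to 207027652 (EEF1B2), chromosome 8 from 144661867 to 144681711 (EEF1D), chromosome 11 from 62327068 to 62341558 (EEF1G) and chromosome 19 from 3976054 to 3985461 (EEF2). PABPC1 lies on chromosome 8 from 101698044 to 101735037, TPT1 on chromosome 13 from 45907606 to 45915419, GNB2L1 on chromosome 5 from 180663897 to 180675096, NACA on chromosome 12 from 57106089 to 57125412 and BTF3 on chromosome 5 from 72794233 to 72801492.

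Levels are given as RPKM, reads per kilobase of the row per 1000000 reads of the library, as deposited. The libraries held about 43720000 to 180870000 reads, recovered from the step of the RPKM values. The deepest was DDX3X siRNA, against about 67520000 reads with control siRNA, and the part of this in their ratios was not tested. No group has a replicate, so the 95% intervals below cover the counting of reads only, and none of the differences has a replicate check. DDX3X itself was at 107 RPKM with control siRNA and 31.3 RPKM with DDX3X siRNA, and at 119 RPKM in GFP cells against 2894 RPKM under wild type, 3279 RPKM under T275M and 1906 RPKM under G302V. The labels also call these cells neuronal. Of 13 neuron markers, 5 were at 1 RPKM or more in every library (NEFM, NEFL, TUBB3, GAD1 and SYT1) and 7 were below 1 RPKM in every library, of which ELAVL4 was listed at 0 throughout. The remaining marker, SNAP25, was at 1.38 RPKM under wild type and 1.22 RPKM under T275M, and at 0.07 to 0.29 RPKM in the other libraries. In bulk RNA, fewer cells that hold an mRNA and less of it per cell cannot be told apart.

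All 10 mRNAs were abundant in every library. Taken as 1 class, they drew 2.28% of all reads with control siRNA (95% interval by Wilson's method 2.281% to 2.288%), 2.19% with DDX3X siRNA (2.189% to 2.193%), 2.22% in GFP cells (2.219% to 2.227%), 2.05% under wild type (2.045% to 2.052%), 2.08% under T275M (2.071% to 2.0796%) and 2.196% under G302V (2.192% to 2.2004%). The share was thus lowest under wild type and T275M. In level per length, the order was EEF1A1, GNB2L1, EEF1G, EEF2, TPT1, NACA, BTF3, EEF1B2, PABPC1 and EEF1D from high to low in each library but GFP, where NACA stood above TPT1. Neighbours in this order differed beyond counting error, with the exception of EEF2 and TPT1 under T275M (ratio 1.00, interval 0.99 to 1.01). EEF1A1 ranked between 6 and 8 among all symbols and EEF1D between 244 and 280.

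**Figure D1:**
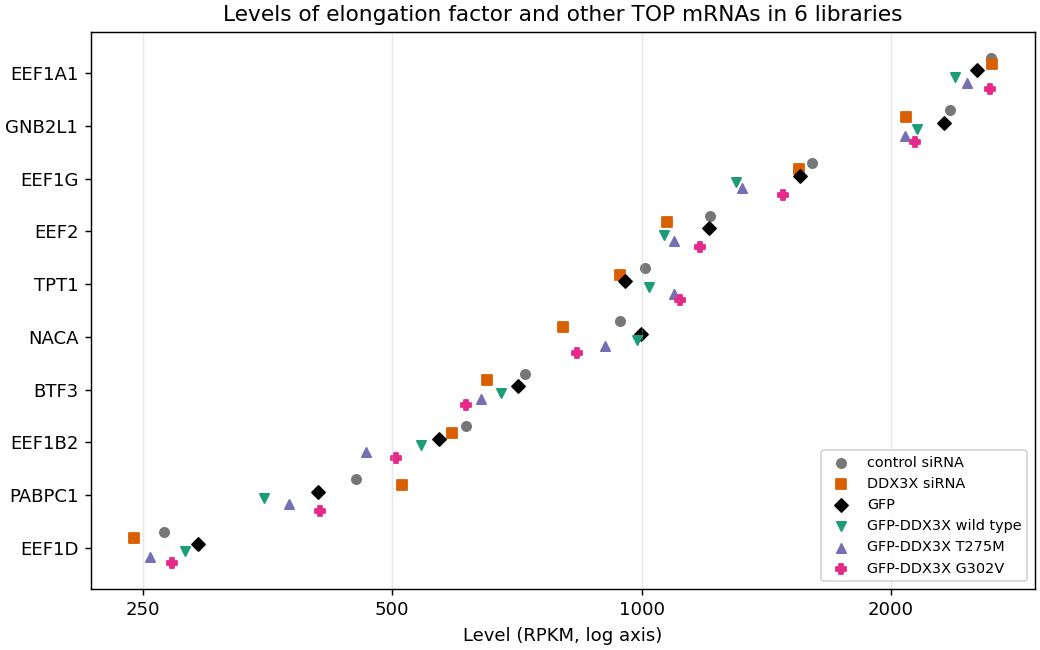
Level of each mRNA in RPKM (horizontal log axis) in the 6 libraries, 1 point per library. The spread between libraries is small beside the differences between genes, and it is widest for PABPC1, whose highest level was 1.47 times its lowest.

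Among the elongation factors, EEF1A1 was the steadiest. It was at 2640.0 RPKM with control siRNA, 2647 RPKM with DDX3X siRNA, 2541 RPKM in GFP cells, 2389.9 RPKM under wild type, 2475 RPKM under T275M and 2635 RPKM under G302V, and its highest level was 1.11 times its lowest. EEF2 was at 1208 RPKM with control siRNA and 1073 RPKM with DDX3X siRNA, and at 1205 RPKM in GFP cells, 1063 RPKM under wild type, 1094 RPKM under T275M and 1177 RPKM under G302V. EEF2 was therefore highest in the control library of each arm.

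The subunits of the exchange complex varied more. EEF1B2 was at 614 RPKM with control siRNA, 590.5 RPKM with DDX3X siRNA, 570.2 RPKM in GFP cells, 542 RPKM under wild type, 465 RPKM under T275M and 505 RPKM under G302V. Both libraries of the siRNA arm were above all 4 of the plasmid arm. EEF1G was at 1604 RPKM with control siRNA, 1548 RPKM with DDX3X siRNA, 1554 RPKM in GFP cells, 1302 RPKM under wild type, 1323 RPKM under T275M and 1482 RPKM under G302V, so wild type and T275M stood apart below the rest. EEF1D was at 265 RPKM with control siRNA, 244 RPKM with DDX3X siRNA, 291 RPKM in GFP cells, 281 RPKM under wild type, 255 RPKM under T275M and 271 RPKM under G302V. It was lowest with DDX3X siRNA and highest in GFP cells.

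PABPC1, the protein that coats the poly(A) tail and joins it to the cap complex, had the widest range. It was at 452 RPKM with control siRNA, 513 RPKM with DDX3X siRNA, 407 RPKM in GFP cells, 349.8 RPKM under wild type, 376 RPKM under T275M and 409 RPKM under G302V. GNB2L1, a scaffold protein of the small ribosomal subunit, was at 2358 RPKM with control siRNA, 2085 RPKM with DDX3X siRNA, 2319 RPKM in GFP cells, 2151 RPKM under wild type, 2081 RPKM under T275M and 2138 RPKM under G302V. Both control libraries were above the other 4.

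TPT1, also called translationally controlled tumour protein, was the member that was highest with the mutants. It was at 1009 RPKM with control siRNA, 942 RPKM with DDX3X siRNA, 955 RPKM in GFP cells, 1019.6 RPKM under wild type, 1093 RPKM under T275M and 1114 RPKM under G302V. NACA and BTF3 code for the alpha and beta subunits of the nascent polypeptide-associated complex, which meets new chains at the ribosome's exit. NACA was at 941 RPKM with control siRNA, 805 RPKM with DDX3X siRNA, 999.9 RPKM in GFP cells, 986 RPKM under wild type, 903 RPKM under T275M and 837 RPKM under G302V. BTF3 was at 723 RPKM with control siRNA, 651 RPKM with DDX3X siRNA, 709 RPKM in GFP cells, 676 RPKM under wild type, 640.1 RPKM under T275M and 614 RPKM under G302V. Both subunits were lower than in the control library of the arm with DDX3X siRNA and with each construct, and nearest to it under wild type.

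To ask whether depletion of DDX3X altered these mRNAs, a log2 ratio of RPKM + 1 was taken between DDX3X siRNA and control siRNA. Of the 10 mRNAs, 8 were lower and 2 higher, with a median log2 ratio of -0.11. The median over all 12694 genes tested was -0.02, with 6914 lower. Over the 903 genes of 100 RPKM or more it was -0.10, with 659 lower. Under median-ratio scaling, 6 members were lower and 4 higher. No member was 1.2-fold or more higher, against 11% of all genes and 3.99% of genes of 100 RPKM or more, and none was 1.2-fold or more lower, against 12.4% and 15.8%. None reached 2-fold (0.0473% of all genes higher and 0.063% lower). NACA had the lowest ratio, at -0.23 (95% counting interval -0.24 to -0.21), followed by GNB2L1 at -0.18 (-0.19 to -0.17), EEF2 at -0.17 (-0.18 to -0.16) and BTF3 at -0.15 (-0.17 to -0.13). PABPC1 stood on the other side at 0.18 (0.17 to 0.20), above 81.9% of all genes tested. EEF1A1 did not differ beyond counting error, at 0.0038 (-0.00038 to 0.008). The counting interval left out 0 for 9 of 10 members, against 72.9% of all genes, and members have many reads and hence narrow intervals.

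The other members were EEF1D at -0.12 (-0.14 to -0.10), TPT1 at -0.10 (-0.11 to -0.09), EEF1B2 at -0.06 (-0.08 to -0.04) and EEF1G at -0.05 (-0.06 to -0.04). The last 2 changed sign under median-ratio scaling, to 0.00 and 0.01. Of the 4 mRNAs named as bound by DDX3X, EEF1A1 and EEF1G lay near 0, GNB2L1 was lower and PABPC1 higher. Whether the other members are bound is not known from the shortened list.

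**Figure D2:**
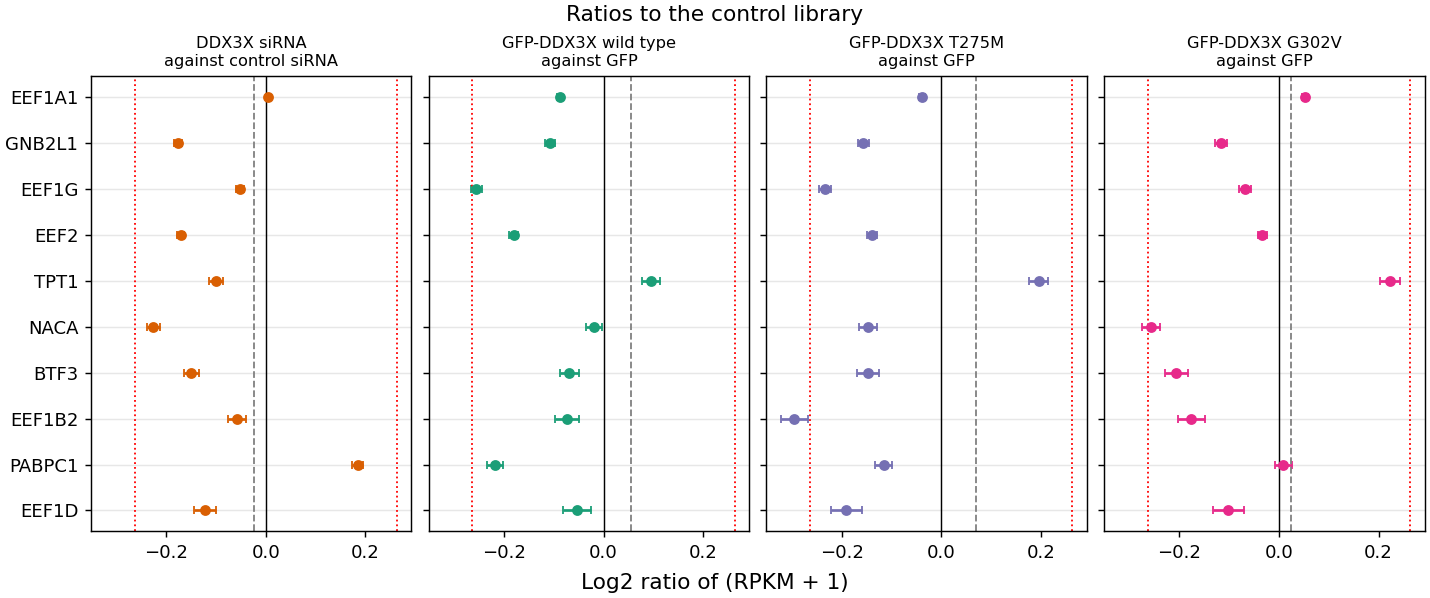
Log2 ratio of (RPKM + 1) of each mRNA to the control library (horizontal axis), with 95% counting intervals as bars. The grey dashed line is the median of all genes tested and the red dotted lines mark 1.2-fold, which only EEF1B2 under T275M passed, at -0.29.

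To ask whether ectopic DDX3X altered these mRNAs, each construct was set against GFP alone, and the 3 comparisons share the GFP library. With wild type, 9 of 10 mRNAs were lower, with a median of -0.08. The median was 0.05 for all 12915 genes tested, with 4898 lower. For the 920 genes of 100 RPKM or more it was -0.07, with 693 lower. No member was 1.2-fold or more higher, against 14.3% of all genes and 1.09% of genes of 100 RPKM or more. No member was 1.2-fold or more lower, against 2.63% and 5.87%, but 2 passed under median-ratio scaling. None reached 2-fold (0.232% higher and 0.0155% lower among all genes). The counting interval left out 0 for 10 of 10 members and for 62.4% of all genes. EEF1G was lowest at -0.26 (-0.27 to -0.24), with 2.91% of all genes below it, then PABPC1 at -0.22 (-0.23 to -0.20) and EEF2 at -0.18 (-0.19 to -0.17). TPT1 was the one mRNA that was higher, at 0.09 (0.08 to 0.11). NACA was nearly level at -0.02 (-0.036 to -0.0033) and turned to 0.0022 with DDX3X reads left out of the library totals. The remaining 5 lay between -0.11 (GNB2L1) and -0.05 (EEF1D).

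With T275M, 9 of 10 mRNAs were again lower than in GFP cells, with a median of -0.15. The median was 0.07 for all 12912 genes tested, with 4875 lower. For the 912 genes of 100 RPKM or more it was -0.15, with 803 lower. EEF1B2 was the one member past 1.2-fold (2 passed under median-ratio scaling), at -0.29 (-0.32 to -0.27), where 5.61% of all genes and 17.5% of genes of 100 RPKM or more were 1.2-fold or more lower. No member was 1.2-fold or more higher, against 18.7% of all genes and 1.21% of genes of 100 RPKM or more, and none reached 2-fold (0.294% higher and 0.0774% lower among all genes). The counting interval left out 0 for 10 of 10 members and for 67.6% of all genes. EEF1G was at -0.23 (-0.24 to -0.22) and EEF1D at -0.19 (-0.22 to -0.16), so the 3 subunits of the exchange complex had the 3 lowest ratios of the set. TPT1 was higher at 0.20 (0.18 to 0.21). EEF1A1, which the complex serves, was at -0.04 (-0.04 to -0.03).

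With G302V, 7 of 10 mRNAs were lower and 3 higher than in GFP cells, and 8 were lower under median-ratio scaling. The median was -0.09, against 0.03 for all 12775 genes tested, with 5775 lower. For the 902 genes of 100 RPKM or more it was -0.15, with 802 lower. No member was 1.2-fold or more higher, against 13.3% of all genes and 0.998% of genes of 100 RPKM or more, or lower, against 5.99% and 17.2%, but 1 passed under median-ratio scaling. None reached 2-fold (0.0861% higher and 0.219% lower among all genes). The counting interval left out 0 for 9 of 10 members and for 61.4% of all genes. NACA was lowest at -0.26 (-0.28 to -0.24) and BTF3 next at -0.21 (-0.23 to -0.18), so both subunits of the nascent chain complex led. EEF1B2 was at -0.18 (-0.20 to -0.15). TPT1 was at 0.22 (0.20 to 0.24), EEF1A1 at 0.05 (0.05 to 0.06) and PABPC1 at 0.01 (-0.01 to 0.03), the last within counting error.

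**Figure D3:**
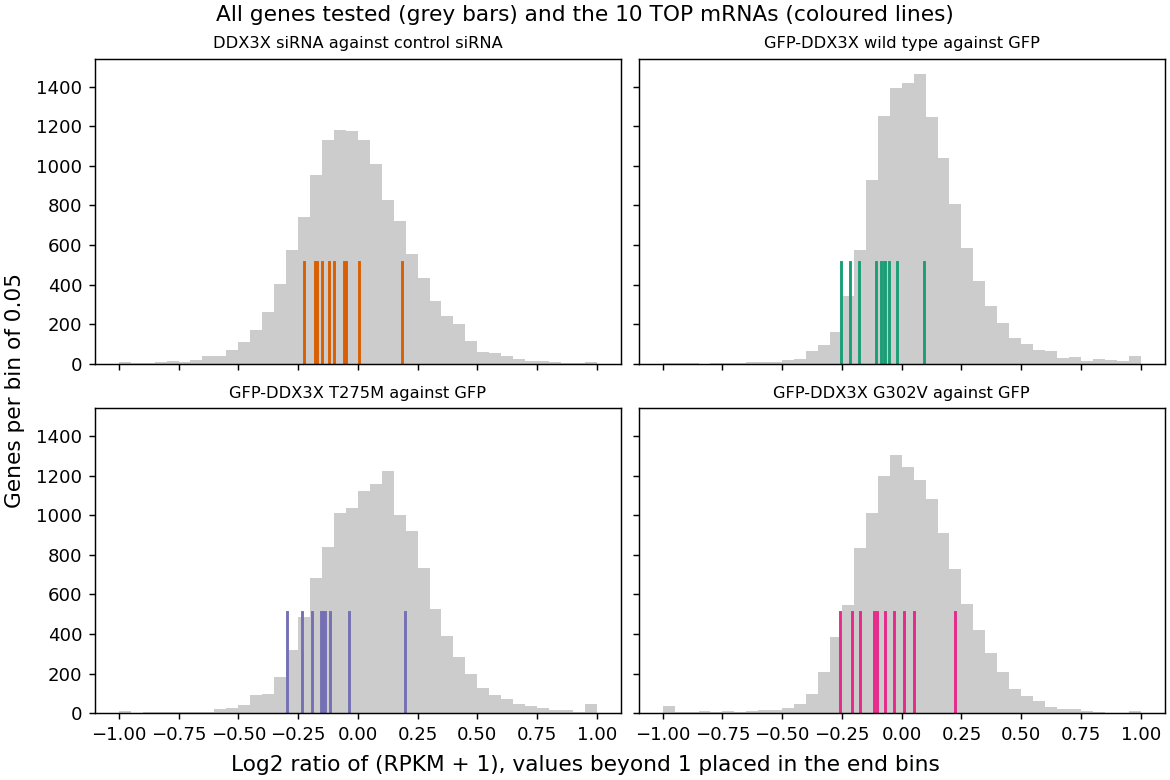
Log2 ratios of all genes tested as a histogram (grey bars, genes per bin of 0.05 on the vertical axis) with the 10 mRNAs of the set as coloured lines, for the 4 comparisons with a control library. The lines lie within the body of each histogram, mostly left of its centre, and TPT1 is the rightmost line with each construct.

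Other abundant mRNAs also lay on the low side. In each of the 4 comparisons with a control library, the median of genes of 100 RPKM or more was below that of all genes tested. Cytosolic ribosomal protein mRNAs, the main class of TOP mRNAs, had medians of -0.07 with DDX3X siRNA, -0.05 under wild type, -0.11 under T275M and -0.10 under G302V over 79 genes. None of the 79 passed 1.2-fold with DDX3X siRNA or G302V, RPL41 did under wild type (-0.27), and RPL41 (-0.30) and RPS26 (-0.33) did under T275M, all 3 values lower.

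Genes with the start tract and genes without it were also set side by side. Among genes of 100 RPKM or more, those with the tract had a median log2 ratio of -0.08 with DDX3X siRNA (142 genes), -0.07 under wild type (143), -0.13 under T275M (143) and -0.12 under G302V (141). Those without it had medians of -0.10 (577 genes), -0.07 (573), -0.16 (569) and -0.17 (561). At this level of expression the median was higher with the tract than without it in all 4 comparisons. Over all genes tested the direction turned, and the median was lower with the tract in all 4. Those medians were -0.037 with the tract and -0.027 without it for DDX3X siRNA, 0.0397 and 0.058 for wild type, 0.058 and 0.074 for T275M, and 0.027 and 0.028 for G302V. None of these differences was tested.

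The mutants were also set against wild type directly. With T275M, 5 mRNAs were higher and 5 lower, with a median of -0.01. The median was 0.00 for all 12973 genes tested, with 6301 lower. For the 881 genes of 100 RPKM or more it was -0.07, with 696 lower. No member passed 1.2-fold in either direction. The background was 2.03% higher and 2.17% lower over all genes, and 0.454% higher and 1.59% lower over genes of 100 RPKM or more. None reached 2-fold (0.0154% higher and 0.0617% lower among all genes). For 10 of 10 members, and for 44.5% of all genes, the counting interval left out 0. EEF1B2 was lowest at -0.22 (-0.25 to -0.19), with 3.85% of all genes below it, and EEF1D and NACA followed at -0.14 (-0.17 to -0.11) and -0.13 (-0.14 to -0.11). PABPC1 and TPT1 were highest, both at 0.10.

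With G302V against wild type, 5 mRNAs were higher and 5 lower, and 6 were higher under median-ratio scaling. The median was 0.06, against -0.03 for all 12967 genes tested, with 7438 lower. For the 887 genes of 100 RPKM or more it was -0.08, with 621 lower. No member passed 1.2-fold in either direction. The background was 6.37% higher and 11.8% lower over all genes, and 1.8% higher and 10.6% lower over genes of 100 RPKM or more. Under median-ratio scaling 1 member passed. None reached 2-fold (0.00771% higher and 0.177% lower among all genes). The counting interval left out 0 for 9 of 10 members and for 62% of all genes. PABPC1 was highest at 0.23 (0.21 to 0.24), EEF1G was at 0.19 (0.18 to 0.20), EEF2 at 0.15 (0.14 to 0.16) and EEF1A1 at 0.14 (0.13 to 0.15). NACA was lowest at -0.24 (-0.26 to -0.22) and BTF3 was at -0.14 (-0.16 to -0.12). EEF1A1 and EEF2, the factors of the main cycle, were therefore higher and both subunits of the nascent chain complex lower. The constructs were not at equal level, as the DDX3X values above show, and the part of this in the ratios was not tested.

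The 2 control libraries give a measure of how far these mRNAs differ without a change of DDX3X. GFP alone against control siRNA gave a median of -0.04, with 8 lower and 2 higher (7 and 3 under median-ratio scaling). The median was 0.01 for all 12730 genes tested, with 6118 lower. For the 934 genes of 100 RPKM or more it was 0.04, with 337 lower. No member passed 1.2-fold in either direction. The background was 9.1% higher and 12.2% lower over all genes, and 6.32% higher and 7.17% lower over genes of 100 RPKM or more. None reached 2-fold (0.432% higher and 0.0707% lower among all genes). For 9 of 10 members, and for 64.5% of all genes, the counting interval left out 0. PABPC1 was at -0.15 (-0.16 to -0.14), EEF1B2 at -0.11 (-0.13 to -0.08) and EEF1D at 0.13 (0.11 to 0.16). These values are of the size of many of the ratios above. They cannot be told apart from the differences of transfection, time and sorting between the arms.

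Ratios between partner mRNAs within a library do not depend on library scaling. EEF1B2 stood at 2.32 times EEF1D with control siRNA (interval 2.28 to 2.35) and 2.42 times with DDX3X siRNA (2.396 to 2.45). The ratio was 1.96 in GFP cells (1.92 to 1.99), 1.93 under wild type (1.895 to 1.96), 1.82 under T275M (1.78 to 1.86) and 1.86 under G302V (1.82 to 1.901). The plasmid arm was below the siRNA arm in all 4 libraries, and within each arm the libraries lay close together. EEF1D has 7 rows of different length that share reads, so the size of its level, but hardly its change, depends on the row.

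EEF1G stood at 2.61 times EEF1B2 with control siRNA, 2.62 with DDX3X siRNA, 2.73 in GFP cells, 2.403 under wild type, 2.85 under T275M and 2.94 under G302V. Wild type was lowest (interval 2.37 to 2.43) and G302V highest (2.89 to 2.98), so the constructs lay on both sides of GFP. EEF1A1 stood between 2.11 (GFP alone) and 2.47 (DDX3X siRNA) times EEF2, and it was higher relative to EEF2 in the 4 DDX3X-altered libraries than in either control.

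NACA stood at 1.302 times BTF3 with control siRNA, 1.24 with DDX3X siRNA, 1.41 in GFP cells, 1.46 under wild type, 1.41 under T275M and 1.36 under G302V. The 2 subunits thus kept to a ratio whose highest value was 1.18 times its lowest. PABPC1 stood at 3.93 times its paralog PABPC4 with control siRNA, 4.64 with DDX3X siRNA, 3.33 in GFP cells, 3.18 under wild type, 3.32 under T275M and 3.55 under G302V, a range of 1.46 times. PABPC4 itself lay between 109.9 and 122 RPKM.

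**Figure D4:**
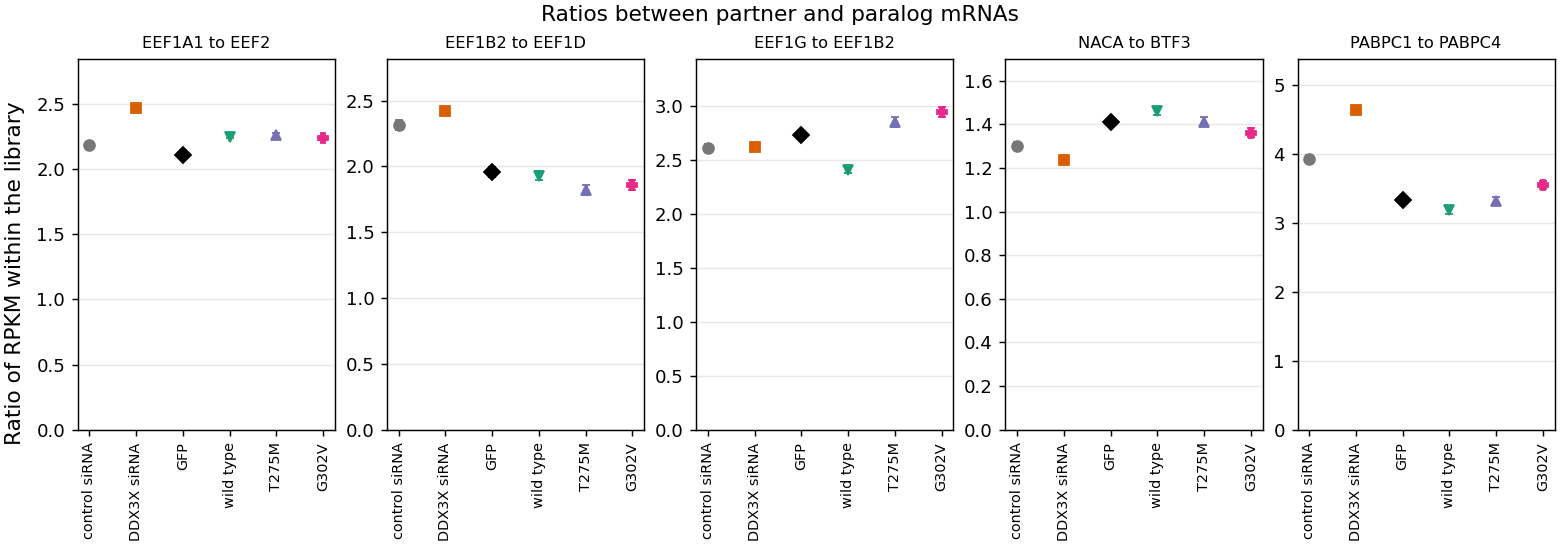
Ratio of RPKM between 2 mRNAs within each of the 6 libraries (vertical axes from 0, bars are 95% counting intervals). EEF1B2 to EEF1D separates the siRNA arm (2.32 and 2.42) from the plasmid arm (1.82 to 1.96), and PABPC1 to PABPC4 is highest with DDX3X siRNA at 4.64.

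Paralogs and partners of the elongation factors were followed from a list of 17 genes. EEF1A2, the tissue-restricted paralog of EEF1A1, had the lowest ratio of the list with DDX3X siRNA and the highest under wild type and T275M. EEF1A2 was at 51.6 RPKM with control siRNA and 32.1 RPKM with DDX3X siRNA, a log2 ratio of -0.67 (-0.71 to -0.62). In the plasmid arm it was at 58.6 RPKM in GFP cells, 79.3 RPKM under wild type (0.43, interval 0.38 to 0.48), 80.5 RPKM under T275M (0.45, interval 0.402 to 0.501) and 73.4 RPKM under G302V (0.32, interval 0.27 to 0.37). It was lowest with DDX3X siRNA and above both control libraries with all 3 constructs, and it was past 1.2-fold in each of these comparisons. EEF1A1, which is far more abundant and similar in sequence, had ratios between -0.09 and 0.05 in all 4.

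EIF5A, which helps the ribosome past difficult peptide bonds, was lower in all 4 comparisons and past 1.2-fold in each. It was at 1058 RPKM with control siRNA and 867 RPKM with DDX3X siRNA (-0.29, interval -0.30 to -0.28), and at 1144 RPKM in GFP cells against 929 RPKM under wild type (-0.30), 839 RPKM under T275M (-0.45) and 861 RPKM under G302V (-0.41). DPH2, an enzyme that makes the diphthamide of EEF2, was higher with DDX3X siRNA (0.28) and lower under wild type (-0.30) and T275M (-0.43). Past 1.2-fold, the list had 1 gene higher and 4 lower with DDX3X siRNA, 1 and 2 under wild type, 1 and 2 under T275M, and 2 and 1 under G302V. Over all genes tested, the shares past 1.2-fold were 11% higher and 12.4% lower with DDX3X siRNA, 14.3% and 2.63% under wild type, 18.7% and 5.61% under T275M, and 13.3% and 5.99% under G302V. Whether the list differs from these shares was not tested.

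Of 8 genes of the poly(A)-binding protein family and its partners, 7 could be tested with DDX3X siRNA and with each construct. PABPC5 had 0 reads in every library, which allows at most 3 reads, or 0.0686 per 1000000 reads in the shallowest. PABPC3, a paralog of PABPC1 without introns, was at 2.43 RPKM with control siRNA and 3.73 RPKM with DDX3X siRNA, a log2 ratio of 0.47. It was at 2.93 RPKM in GFP cells, 2.47 RPKM under wild type (-0.18), 2.303 RPKM under T275M (-0.25) and 4.72 RPKM under G302V (0.54), so it was lower under wild type and T275M and higher under G302V. Reads of PABPC3 and PABPC1 may have been exchanged because the genes are close copies. PAIP2, an inhibitor that binds PABPC1, was at 73.7 RPKM under T275M against 59.0 RPKM in GFP cells (0.32, interval 0.26 to 0.37). PABPC1L, of the same family, was at 17.1 RPKM under T275M against 13.4 RPKM (0.33). Past 1.2-fold higher were 1 gene of the list with DDX3X siRNA, 0 under wild type, 2 under T275M and 1 under G302V, and none was lower. Over all genes tested, the shares 1.2-fold or more higher were 11%, 14.3%, 18.7% and 13.3% in that order.

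Known regulators of TOP mRNAs were taken from a list of 20 genes, all of which could be tested. With DDX3X siRNA, 3 were past 1.2-fold higher and 3 lower, where 11% of all genes tested were higher and 12.4% lower. The count is near this background and is no result about the regulators as a group, so the values that follow describe single genes. MTOR, the kinase, was at 32.96 RPKM against 25.0 RPKM (0.39, interval 0.36 to 0.41), and RPS6KB1, a kinase below it, was at 9.44 RPKM against 13.3 RPKM (-0.46, interval -0.503 to -0.41). EIF4EBP1, a translation repressor that mTOR inhibits, was at 88.5 RPKM against 129 RPKM (-0.54, interval -0.58 to -0.49), whereas its paralog EIF4EBP2 was higher at 0.303. LARP1B (0.28) and HNRNPD (-0.33) made up the rest.

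With the constructs, EIF4EBP1 was at 138 RPKM in GFP cells, 129 RPKM under wild type, 103 RPKM under T275M (-0.42, interval -0.48 to -0.36) and 107 RPKM under G302V (-0.37, interval -0.42 to -0.31). No regulator passed 1.2-fold under wild type, 1 was higher and 1 lower under T275M, and 2 were higher and 2 lower under G302V. Of all genes tested, 14.3% were higher and 2.63% lower under wild type, 18.7% and 5.61% under T275M, and 13.3% and 5.99% under G302V. Whether the regulators differ from these shares was not tested, so these values too describe single genes. MTOR was higher under G302V (0.33), LARP4B under T275M and G302V (both 0.27), and HNRNPD was lower under G302V (-0.36). LARP1, which binds the TOP tract, was at 74.7 RPKM with control siRNA, 86.4 RPKM with DDX3X siRNA, 68.3 RPKM in GFP cells, 66.6 RPKM under wild type, 69.2 RPKM under T275M and 78.1 RPKM under G302V. It did not pass 1.2-fold in any of these comparisons, and it is named here for its role, after its values were seen.

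Other TOP mRNAs that code for no ribosomal protein were taken from a list of 8 genes. All 8 were lower with DDX3X siRNA, with a median of -0.12, and HNRNPA1 passed 1.2-fold at -0.33 (1109 RPKM against 1395 RPKM). In this comparison, 6914 of all 12694 genes tested and 659 of the 903 genes of 100 RPKM or more were lower. The median of those 903 genes was -0.10. The medians of the 8 genes were -0.09 with each of wild type, T275M and G302V. Past 1.2-fold lower were 15.8% of genes of 100 RPKM or more with DDX3X siRNA, 5.87% under wild type, 17.5% under T275M and 17.2% under G302V. EIF3F, a subunit of an initiation factor, was past 1.2-fold lower under wild type (-0.28) and T275M (-0.31), and HNRNPA1 (-0.34) and NPM1 (-0.29) were under G302V. The medians of the 10 mRNAs were -0.11 with DDX3X siRNA, -0.08 under wild type, -0.15 under T275M and -0.09 under G302V, as given above.

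Paralogs of the nascent polypeptide-associated complex were few. BTF3L4, the paralog of BTF3, was past 1.2-fold lower with DDX3X siRNA (-0.34), and NACAD, a paralog of NACA, was past it higher under T275M (0.47) and G302V (0.42). NACAD was near the floor, at 0.53 RPKM in GFP cells, 1.13 RPKM under T275M and 1.05 RPKM under G302V. It met the filter only through the mutant libraries, and at 0.91 RPKM under wild type it was not tested there. Over all genes tested, 12.4% were 1.2-fold or more lower with DDX3X siRNA. The shares higher were 18.7% under T275M and 13.3% under G302V.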

How the data were processed

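Per the file headers, the authors deposited RPKM (FPKM in the methods). Reads were trimmed with cutadapt and aligned with BWA 0.5.5, per the submitters' processing notes, to NCBI Build 37 (hg19), RefSeq, exon junctions and AceView. Duplicates were removed, and reads were counted per gene and divided by length and library total. Each of 39618 rows is a RefSeq accession.

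Reads and depths were recovered because RPKM multiplied by length came out at whole reads (100% of the low rows, to within 0.1 read). Log2 ratios used a pseudocount of 1, and understate changes of low genes. A gene was tested with at least 1 RPKM and 10 reads in at least 1 of the 2 libraries. Ratio intervals are exact (Clopper-Pearson, 95%) and cover counting error only. With 1 library per group, no test was run. Folds of 1.2 (0.263 in log2) and 2 were counted. Genes named are the 10 members, their rows and copies, some but not all genes of the lists past 1.2-fold, and the 5 genes most like the members' mean. Genes called high had 100 RPKM or more in at least 1 of the 2 libraries.

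The members and lists were chosen with earlier results of these data known. Gene positions are from GENCODE version 44 on GRCh37. The step and the intervals were tested on simulated reads. Python 3.11.15, numpy 2.4.6, pandas 2.3.3, scipy 1.17.1 and matplotlib 3.10.9 were used. The copy held of the study's list of bound RNAs is shortened, so only names were taken from it. Alternatives were other pseudocounts, filters, scalings, row choices and fold thresholds.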

Additional observations from a re-analysis of the deposited data

How the results depend on the processing

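Median-ratio scaling moved the median log2 ratio of the 10 mRNAs from -0.11 to -0.054 with DDX3X siRNA, from -0.08 to -0.15 under wild type, from -0.15 to -0.22 under T275M, from -0.09 to -0.11 under G302V, and from 0.06 to 0.10 under G302V against wild type. It raised the number of members past 1.2-fold to 2 under wild type, 2 under T275M, 1 under G302V and 1 under G302V against wild type. Leaving DDX3X reads out of the library totals gave medians of -0.059 under wild type and -0.12 under T275M. At a 1.1-fold threshold, 5 members passed with DDX3X siRNA, 3 under wild type, 8 under T275M, 4 under G302V, 1 under T275M against wild type, 5 under G302V against wild type and 1 between the controls. Pseudocounts of 0.1 and 10, values per library without division by length, summed rows, and the other filters (1 read, or 100 RPKM) left these counts as they were and moved none of the medians beyond the counting interval. Of 420 alternative values of single members, 6 had the opposite sign, 5 of them under median-ratio scaling, which are named beside their results except GNB2L1 for G302V against wild type (0.037), EEF2 between the controls (0.0057) and PABPC1 under G302V (-0.019). No library could be left out, with 1 per group. No paired analysis was possible because each group holds 1 library and the labels give no replicate numbers.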

Other observations

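The rows of 1 gene in these tables count the same reads more than once, which bears on the levels of EEF1D, NACA, EEF1B2 and BTF3. EEF1D has 7 rows of 1204 to 2498 bases, and the row with the fewest reads held 87.8% to 89.2% of the reads of the row with the most. The longest row of EEF1D has 1279 bases more than the row used, and held 4.79% to 5.703% more reads. The longest row of NACA has 2130 bases more than the row used, and held 0.215% to 0.383% more reads. In the GFP library EEF1D was at 291 RPKM by the row used and at 150.3 RPKM by the longest. For NACA the same values were 999.9 and 329 RPKM.

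Of copies and antisense genes named after the members, the tables list 4, and NACAP1 was the 1 that reached 1 RPKM. NACAP1 was at 2.87 RPKM with control siRNA, 3.04 RPKM with DDX3X siRNA, 3.66 RPKM in GFP cells, 3.76 RPKM under wild type, 3.08 RPKM under T275M and 4.95 RPKM under G302V. Other processed copies of EEF1A1, TPT1 and the rest have no row under such a name, and where their reads were placed was not tested. The paralog NACA2 was at 3.46 to 6.36 RPKM, and was also highest under G302V.

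The mitochondrial elongation factors are the counterpart of this set in the other translation system of the cell. TUFM, the counterpart of EEF1A1, was at 282 RPKM with control siRNA, 280.1 RPKM with DDX3X siRNA, 249.5 RPKM in GFP cells, 218 RPKM under wild type, 206 RPKM under T275M and 223 RPKM under G302V. All 4 libraries of the plasmid arm were below both of the siRNA arm. TUFM passed 1.2-fold under T275M (log2 ratio -0.28, interval -0.302 to -0.25). The list of 4 genes had medians of 0.00 with DDX3X siRNA, -0.07 under wild type, -0.18 under T275M and -0.18 under G302V.

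Of 838 other genes with a mean of 100 RPKM or more, 5 followed the mean log2 level of the 10 mRNAs most closely over the 6 libraries. These were RPL15 (Pearson's r 0.995), a ribosomal protein, TPI1 (0.984), a glycolytic enzyme, CHCHD2 (0.981), SLC25A3 (0.973), the mitochondrial phosphate carrier, and UBE2S (0.971), a ubiquitin-conjugating enzyme. The 6 points share the scaling to library total, and the levels of RPL15 spanned 0.18 on the log2 scale.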
